A study of Homo sapiens with 2 samples.

Results

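This report concerns 40 genes of tRNA charging, taken by name from the 20037 protein-coding genes of the RefSeq table: 19 cytosolic aminoacyl-tRNA synthetase genes (symbols ending in 1, with the subunit genes FARSA and FARSB), 16 mitochondrial ones (ending in 2), the enzyme genes TARS3 and SEPSECS, and AIMP1, AIMP2 and EEF1E1, which encode non-catalytic subunits of the multi-synthetase complex. A gene counted as having a peak when a deposited peak lay inside it or within 3 kb of either end. The 40 genes were proposed with peak results of these libraries already known, so how many of them have a peak is a description and no test of it is given. The data are ATAC-seq, in which a transposase tags accessible DNA, from the prostate cancer line C42 (C4-2). In 1 library the cells carried a control shRNA (CTR), and in the other an shRNA (shWHSC1) directed at WHSC1, also called NSD2, a histone H3 methyltransferase. The cells of both groups grew in the same serum-supplemented RPMI medium, and the number of hairpins or clones behind each library is not given in the sources used here.

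Aminoacyl-tRNA synthetases join each amino acid to its tRNA, the step that sets the genetic code. Cytosol and mitochondria mostly use enzymes from separate nuclear genes, although GARS1 and KARS1 are known to serve both compartments and EPRS1 carries the glutamate and the proline enzyme in 1 protein. Several cytosolic enzymes sit in a multi-synthetase complex held together by AIMP1, AIMP2 and EEF1E1. Many cytosolic synthetase genes are known targets of ATF4, the transcription factor of the amino acid response. Promoters of such housekeeping genes are often CpG-rich and shared with a gene read in the opposite direction.

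With 1 library per group there is no spread between replicates, and nothing below can be called a difference between conditions. The control list held 2010 peaks and the knockdown list 2418, of unknown read depth, and an absent peak is the lack of a call by the authors' peak caller, not a measured lack of accessibility. WHSC1 (NSD2) itself had no peak within 3 kb in either library, and the nearest control and knockdown peaks were 280 and 1180 kb away, so the lists give no check of the knockdown. Of 11 luminal prostate marker genes, ACP3 and STEAP2 had a peak in both libraries and 9 had none. None of 7 leukocyte and none of 8 stromal and basal marker genes had a peak in either library. Since 12.0% of all protein-coding genes had a peak in at least 1 library, these counts on short lists give little check of the cell type.

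The peaks of the synthetase genes lay mostly at starts that the gene shares with a neighbour. The 5 shortest stretches between such paired starts are printed whole, among members that have a peak and an entry in the RefSeq promoter table. They are read 5′ to 3′ toward the member named first, on GRCh38.p14 (RefSeq), and run from the base after the neighbour's annotated start to the base before the member's. Capitals mark matches to motifs searched on both strands: CCGGAAG (ETS factors), GGGCGG (SP1) and CCAAT (NFY).

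HARS1 to HARS2: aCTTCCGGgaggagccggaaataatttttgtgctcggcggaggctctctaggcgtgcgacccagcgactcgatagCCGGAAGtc
KARS1 to TERF2IP: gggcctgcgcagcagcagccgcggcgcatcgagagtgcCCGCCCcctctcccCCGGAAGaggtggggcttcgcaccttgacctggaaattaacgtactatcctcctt
TARS1 to TARS1-DT: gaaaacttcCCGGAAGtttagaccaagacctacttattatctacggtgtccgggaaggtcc
FARS2 to LYRM4: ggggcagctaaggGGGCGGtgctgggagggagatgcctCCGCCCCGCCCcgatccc
AIMP2 to PMS2: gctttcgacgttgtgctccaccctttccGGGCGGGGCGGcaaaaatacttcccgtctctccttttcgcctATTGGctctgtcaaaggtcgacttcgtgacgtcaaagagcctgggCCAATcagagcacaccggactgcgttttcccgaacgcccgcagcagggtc

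The HARS1 to HARS2 stretch is chr5:140691371-140691454 on the minus strand, 84 bases with 59.5% G and C. It holds an ETS match near each of its ends, in opposite directions. The KARS1 stretch is chr16:75647666-75647772, minus strand, 107 bases, with 1 ETS and 1 SP1 match. The TARS1 stretch, chr5:33440635-33440695 on the plus strand, has 61 bases and 1 ETS match, and the FARS2 stretch, chr6:5260951-5261006 on the plus strand, has 56 bases and 3 SP1 matches, 2 of which overlap. The AIMP2 stretch, chr7:6009107-6009271 on the plus strand, is the longest at 165 bases and holds 2 NFY and 2 overlapping SP1 matches.

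Peaks and stretches did not coincide in the same way in both libraries. The knockdown peaks covered all 84 bases between HARS1 and HARS2 and all 165 between AIMP2 and PMS2, whereas the control peaks covered 0 bases of either. At TARS1 the control peak covered all 61 bases and the knockdown peak 14. The control peak at KARS1 covered all 107 bases of its stretch. The knockdown peak at FARS2 covered 0 bases and began 74 bp past the FARS2 start. Peak edges come from the caller and have no error estimate here.

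For 3 further members the 150 bases before the outermost start and the first 10 after it are shown, because a peak lies over that start in at least 1 library. Capitals mark the same motifs and that of NRF1, searched as GCGCA and GCGC with 1 base of any kind between them.

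FARSB: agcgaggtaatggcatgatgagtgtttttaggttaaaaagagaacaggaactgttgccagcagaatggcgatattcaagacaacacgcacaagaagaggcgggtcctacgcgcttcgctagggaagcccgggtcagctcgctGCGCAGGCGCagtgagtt
WARS2: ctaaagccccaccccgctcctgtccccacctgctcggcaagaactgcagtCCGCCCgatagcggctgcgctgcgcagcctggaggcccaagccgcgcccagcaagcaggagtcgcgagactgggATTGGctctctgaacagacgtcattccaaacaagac
EARS2: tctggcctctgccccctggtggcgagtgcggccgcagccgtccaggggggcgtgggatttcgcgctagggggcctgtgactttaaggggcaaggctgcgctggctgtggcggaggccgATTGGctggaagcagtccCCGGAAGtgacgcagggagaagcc

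The FARSB window, chr2:222656083-222656242 on the minus strand, holds an NRF1 match that spans the annotated start, and all 160 bases lay within the peaks of both libraries. The WARS2 window, chr1:119140663-119140822 on the minus strand, has 1 NFY and 1 SP1 match, and the peaks of control and knockdown covered its last 51 and 57 bases. The EARS2 window, chr16:23557366-23557525 on the minus strand, has 1 ETS and 1 NFY match and lay whole within the control peak.

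In the control library 11 of the 40 genes had a peak (27.5%, exact 95% Clopper-Pearson interval 14.6 to 43.9%), and in the knockdown library also 11 (27.5%). Over all protein-coding genes the background shares were 7.64% in the control library and 9.26% in the knockdown library. A peak in both libraries was found at 7 members (17.5%, interval 7.34 to 32.8%), against 4.95% of all protein-coding genes. A further 4 members had a control peak only and 4 a knockdown peak only (10.0% each), against 2.69% and 4.32% of all protein-coding genes. A peak in at least 1 library was thus found at 15 members (37.5%), against 12.0% of all protein-coding genes, which leaves 25 members with none. Each library's 11 genes rest on 10 separate peaks, because HARS1 and HARS2 share theirs. The intervals cover the counting of genes only. With both lists limited to a −log10 q of at least 5, 2 members remained in each library, against 0.579% and 0.739% of all protein-coding genes. Without peaks within 3 kb of another protein-coding gene, 4 members remained in the control library and 5 in the knockdown library, against 5.26% and 6.29%.

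**Figure D1:**
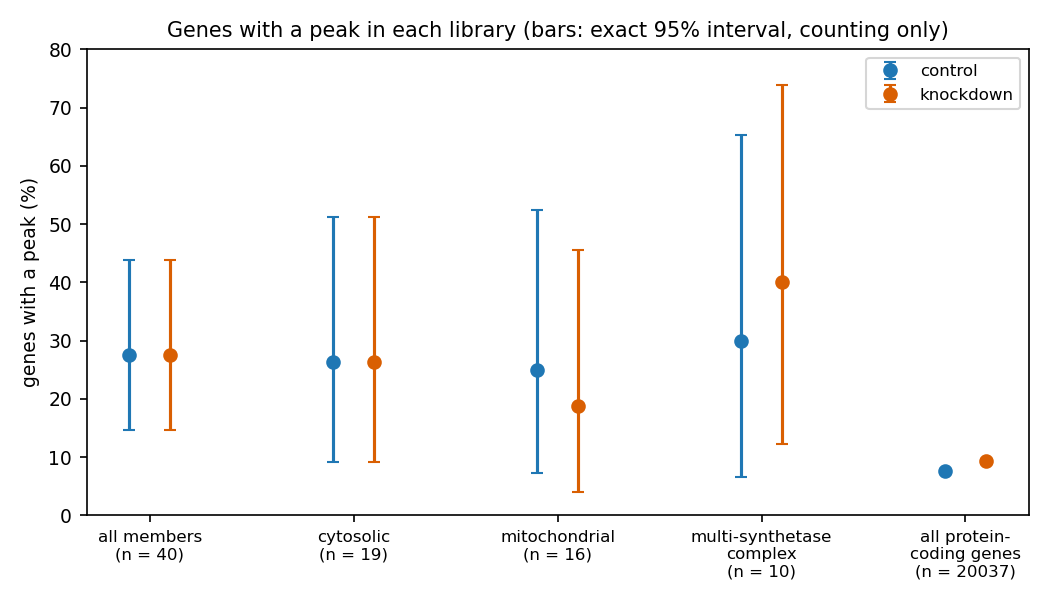
Percentage of genes with a peak in the control and knockdown library (y axis) for all 40 members, the 19 cytosolic and 16 mitochondrial synthetases, the 10 members of the multi-synthetase complex and all 20037 protein-coding genes; bars are exact 95% intervals. The intervals of the cytosolic and mitochondrial genes overlap almost entirely in the control library and over most of their range in the knockdown library.

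Cytosolic and mitochondrial genes gave similar shares with wide intervals. In the control 5 of 19 cytosolic genes (26.3%, interval 9.15 to 51.2%) and 4 of 16 mitochondrial genes (25.0%, interval 7.27 to 52.4%) had a peak. In the knockdown the counts were 5 of 19 (26.3%, the same interval) and 3 of 16 (18.8%, interval 4.05 to 45.6%). These intervals are too wide to show whether the classes differ. The multi-synthetase complex, with 10 of the 40 genes, had a control peak at 3 genes and a knockdown peak at 4. The 2 structural classes of synthetase also overlapped: 4 of 18 class I genes and 6 of 17 class II genes had a control peak, and 3 and 5 had a knockdown peak, leaving out EPRS1, which has an enzyme of each class.

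Among the cytosolic genes, HARS1 (histidine), LARS1 (leucine), TARS1 (threonine) and FARSB, the beta subunit of the phenylalanine enzyme, had a peak in both libraries. The LARS1 peak stood 4.75-fold over local background in the control library, with a −log10 q of 8.35, and 3.94-fold in the knockdown library, with a −log10 q of 5.74. It lay over the LARS1 end at 146182650 on chromosome 5, at 146182465 to 146183128 in the control and 146182518 to 146182978 in the knockdown. LARS1 was the only member with a −log10 q of at least 5 in both libraries, and the only 1 with a peak that had no end of another annotated gene within 3 kb.

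TARS1 had a 4.14-fold control peak and a 4.17-fold knockdown peak, with a −log10 q of 3.18 and 4.24. Its peaks, at 33440547 to 33441041 and 33440682 to 33441169 on chromosome 5, covered the annotated start at 33440696. The start of the divergent noncoding gene TARS1-DT lay inside the control peak and 48 bp outside the knockdown peak.

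FARSB had a 4.54-fold control peak and a 3.20-fold knockdown peak, with a −log10 q of 5.10 and 1.46. Its peaks on chromosome 2, at 222655997 to 222656358 and 222655883 to 222656358, ended at the same base. By fold, FARSB stood at position 161 of 2010 in the control and at 1915 of 2418 in the knockdown. Positions in lists of different length, and folds over backgrounds estimated separately in each library, show no change by themselves.

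The HARS1 and HARS2 peak was weak in both libraries, at 3.54-fold in the control library and 3.45-fold in the knockdown library, with a −log10 q of 1.69 and 2.18. The starts of the cytosolic and the mitochondrial histidine enzyme are 85 bp apart on chromosome 5 and point away from each other, so the peak cannot be assigned to either gene. The control peak, 140691473 to 140691777, began 18 bp inside HARS2, and the knockdown peak, 140691351 to 140691618, covered both starts. The overlap was 146 bp, 47.9% of the control peak and 54.5% of the knockdown peak.

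KARS1 (lysine) had a peak in the control only, 3.48-fold with a −log10 q of 1.54, at 75647656 to 75648276 on chromosome 16. This peak also covered the start of TERF2IP, a telomere protein gene that begins 108 bp from the KARS1 start. QARS1 (glutamine) had a peak in the knockdown only, 3.26-fold with a −log10 q of 1.41, at 49094163 to 49094467 on chromosome 3. That peak lay 1465 bp beyond the 3′ end of QARS1 and over the end of QRICH1 at 49094373, which is a QRICH1 start. It was the peak farthest from its member among those counted, and the QARS1 start itself, 10290 bp away, had none.

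**Figure D2:**
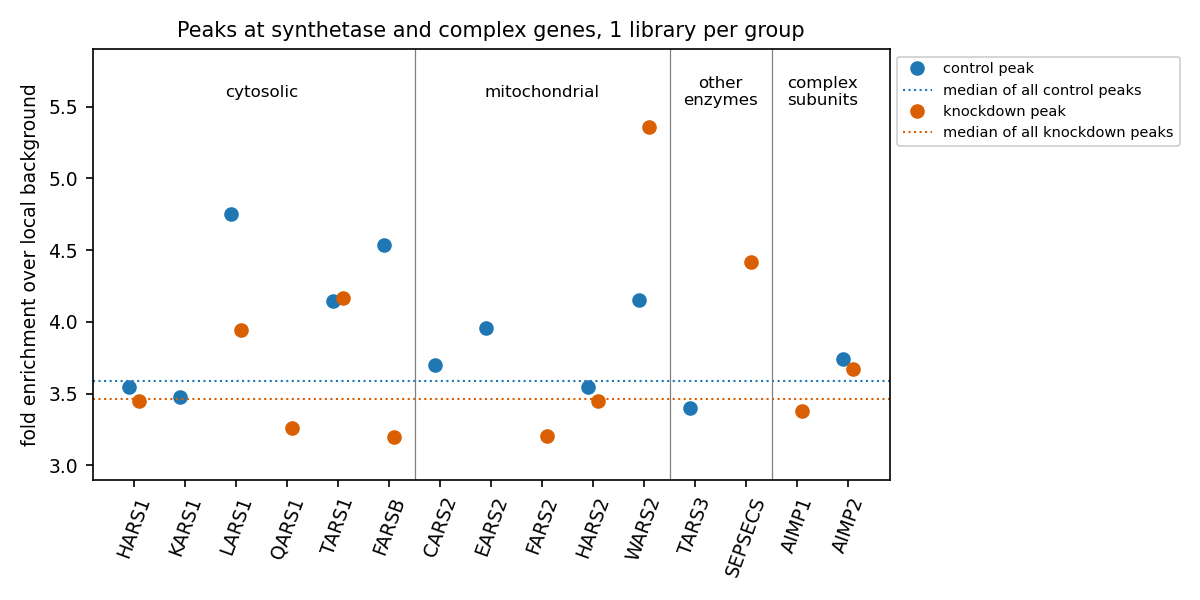
Fold enrichment over local background (y axis) of the peak at each of the 15 members with a peak, by role, for the control and the knockdown library; dotted lines are the medians of all peaks in each list, 3.59 and 3.46. WARS2 in the knockdown (5.36) and LARS1 in the control (4.75) are the highest points, and HARS1 and HARS2 show 1 shared peak.

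Among the mitochondrial genes, WARS2 (tryptophan) had the highest fold of all members. Its control peak was 4.15-fold and its knockdown peak 5.36-fold, with a −log10 q of 2.74 and 7.21, and stood at position 351 of 2010 and 48 of 2418. The peaks, at 119140378 to 119140713 and 119140396 to 119140719 on chromosome 1, overlapped by 318 bp, 94.6% of the control and 98.1% of the knockdown peak. They lay over the WARS2 start and also reached the start of the antisense gene WARS2-AS1, inside WARS2.

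EARS2 (glutamate) and CARS2 (cysteine) had a peak in the control only. At EARS2 it was 3.96-fold with a −log10 q of 2.33, at 23557326 to 23557598 on chromosome 16, over the EARS2 start and 129 bp from the start of UBFD1. At CARS2 it was 3.70-fold with a −log10 q of 2.50, at 110712972 to 110713238 on chromosome 13. This peak lay 284 bp inside CARS2 from its outer end, 6457 bp from the nearest CARS2 start of the promoter table and 23 bp from a start of ING1, a chromatin-binding tumour suppressor that overlaps CARS2.

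FARS2 (phenylalanine) had a peak in the knockdown only, 3.21-fold with a −log10 q of 1.28, at 5261081 to 5261385 on chromosome 6. It lay 11147 bp inside the annotated gene, 74 bp past a FARS2 start and 131 bp from the start of LYRM4, an iron-sulfur cluster assembly factor. Its −log10 q was the lowest among the members, near the smallest in that list, 1.02.

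Of the other enzymes, SEPSECS, which completes selenocysteine on its tRNA, had a peak in the knockdown only, 4.42-fold with a −log10 q of 4.13. It lay at 25160462 to 25160806 on chromosome 4 over an end of SEPSECS and an end of the divergent transcript gene SEPSECS-DT. TARS3, which encodes a threonyl-tRNA synthetase related to TARS1, had a peak in the control only, 3.40-fold with a −log10 q of 1.54, at 101652265 to 101652916 on chromosome 15. This peak lay 680 bp outside TARS3 and over an end of TM2D3, which is a TM2D3 start.

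Of the complex subunits, AIMP2 had a peak in both libraries and EEF1E1 in neither. The AIMP2 peaks, 3.74-fold for the control library and 3.67-fold for the knockdown library with a −log10 q of 2.13 and 2.98, lay at 6009308 to 6009683 and 6009079 to 6009563 on chromosome 7. The control peak began 36 bp inside AIMP2, and the knockdown peak also covered the end of PMS2, a mismatch repair gene that starts on the other strand. AIMP1 had a peak in the knockdown only, 3.37-fold with a −log10 q of 1.78, at 106315962 to 106316438 on chromosome 4. It lay 418 bp inside AIMP1, 27 bp from the nearest AIMP1 start, and covered a start of TBCK.

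**Figure D3:**
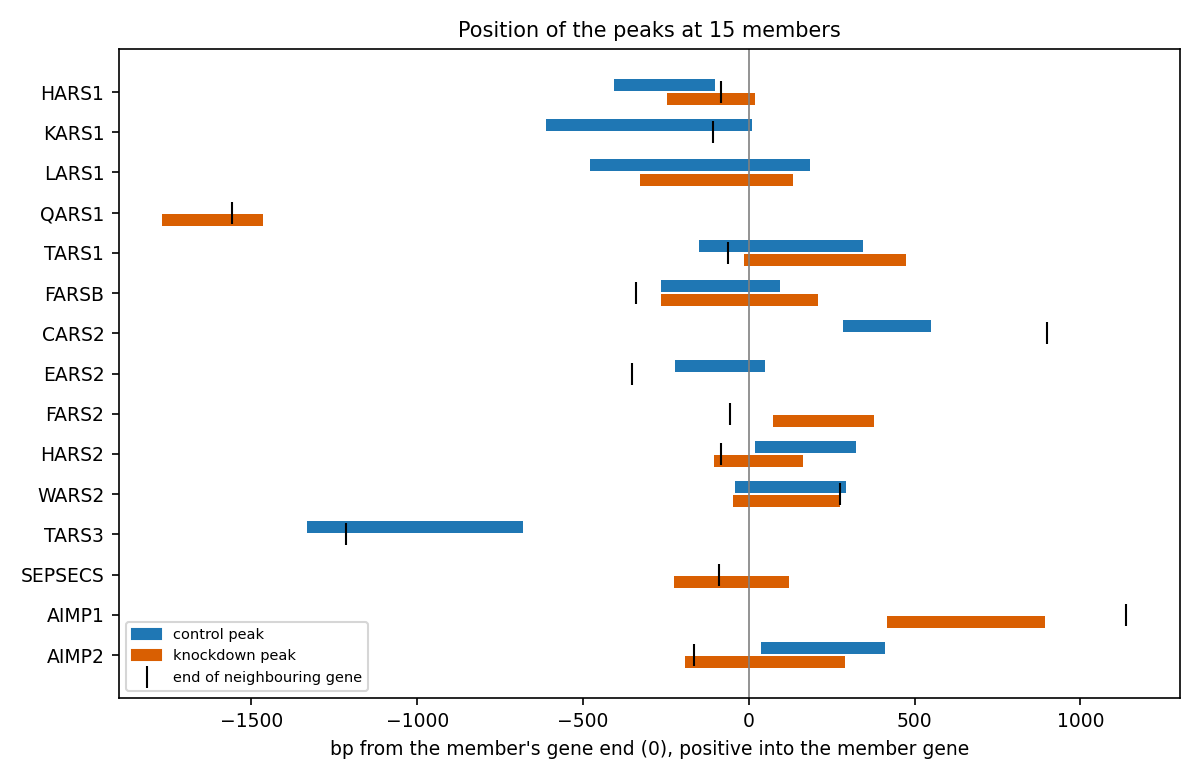
Position of each peak in base pairs (x axis) relative to the end of the member gene, positive into the gene, for the 15 members; for FARS2 the reference is its start at the peak. Bars are peaks by library and black ticks are the neighbouring gene's nearer end; the peaks of QARS1 and TARS3 lie outside their member and over the neighbour's end.

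Most members' peaks were also near another gene. In each library 10 of the 11 members with a peak had it within 3 kb of an end of another annotated gene of any kind, against 58.2% of all protein-coding genes with a control peak and 58.3% of those with a knockdown peak. For another protein-coding gene the counts were 7 of 11 (control) and 6 of 11 (knockdown), against 32.8% and 33.9%. Such peaks are counted for the member and cannot be told apart from peaks of the neighbour.

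The promoter table gives starts for 33 members. Of these, 12 (36.4%, interval 20.4 to 54.9%) had the start of a gene on the other strand within 1 kb upstream, against 22.1% of 15843 protein-coding genes in the table. In each library 7 of these 12 members had a peak (58.3%, interval 27.7 to 84.8%), and 2 of the 21 others (9.52%, interval 1.17 to 30.4%). HARS1 and HARS2 are each other's partner and share their peak, so these members are not all independent, which the interval does not cover. Over all protein-coding genes the control shares were 13.0% with such a start and 6.31% without, and the knockdown shares 16.9% and 7.68%. Divergent members with a peak in at least 1 library were HARS1, HARS2, KARS1, TARS1, FARSB, EARS2, FARS2, AIMP1 and AIMP2. WARS1, RARS2 and SARS2 also have such a partner (WDR25, ORC3 and MRPS12) and had no peak. The members without such a start that had a peak were WARS2, CARS2 and QARS1, and at the last 2 the peak lay at a start of the neighbour.

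**Figure D4:**
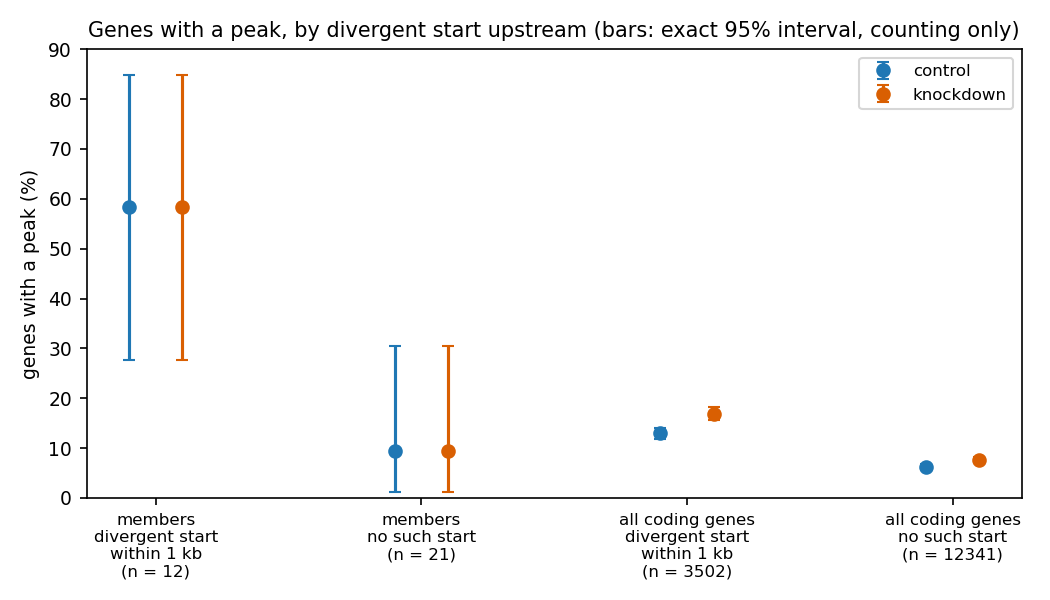
Percentage of genes with a peak in each library (y axis) for members and for all protein-coding genes with a promoter entry, split by whether a gene on the other strand starts within 1 kb upstream; bars are exact 95% intervals. Among members 7 of 12 with such a start and 2 of 21 without had a peak in each library. HARS1 and HARS2, which are each other's partner, are counted separately although they share their peak.

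The base composition of the promoter windows, 250 bases before to 50 after each start, had the same median share of G and C in members with and without a peak. It was 62.0% in the 12 members with a peak and 62.0% in the 21 without, and 62.3% over all protein-coding genes. The observed over expected ratio of CG pairs had a median of 0.74 in members with a peak and 0.89 in those without. Over all protein-coding genes the order was the reverse, 0.82 with a peak and 0.72 without. All 33 members fell in the second to the eighth decile of G and C content, where 6.63 to 10.2% of all protein-coding genes had a control peak and 8.40 to 12.2% a knockdown peak.

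Motif letters were commoner in these promoters than in the table as a whole. CCGGAAG was in 17 of 33 members (51.5%) against 16.5% of all protein-coding genes, CCAAT in 57.6% against 42.1%, GGGCGG in 75.8% against 64.3%, and the NRF1 motif in 21.2% against 9.67%. The E-box CACGTG, bound by MYC and related factors, was in 15.2% against 10.9%. CCGGAAG was in 6 of 12 members with a peak and 11 of 21 without, and in 20.7% and 15.9% of all protein-coding genes with and without a peak. No test was made, since the members were chosen by name and several have more than 1 window.

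**Figure D5:**
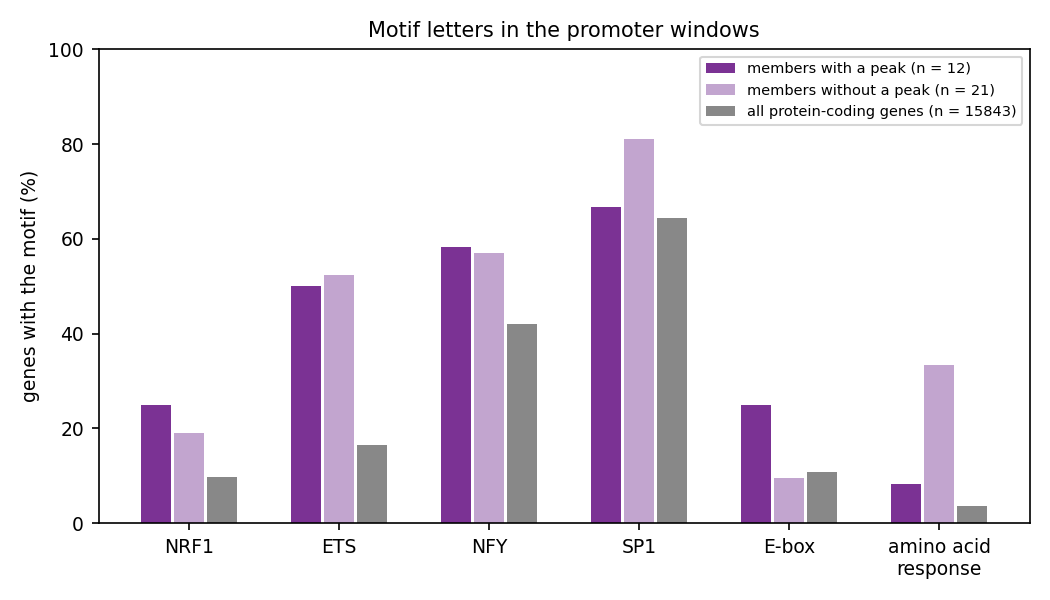
Percentage of genes whose promoter windows hold each motif on either strand (y axis) for 12 members with a peak in at least 1 library, 21 members without and all 15843 protein-coding genes of the table. CCGGAAG and the amino acid response letters stand higher in members than in all genes, the latter mainly in members without a peak.

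The amino acid response element, recognised by ATF4 with a C/EBP partner, was searched as TGATGNAA. It was in 8 of 33 members (24.2%) against 3.60% of all protein-coding genes. These 8 were 7 of the 16 cytosolic synthetases with an entry (AARS1, CARS1, GARS1, IARS1, MARS1, NARS1 and TARS1) and 1 of 14 mitochondrial ones (YARS2). TARS1 alone among the 8 had a peak, so the element was in 1 of 12 members with a peak and 7 of 21 without. Over all protein-coding genes it was in 3.72% of those with a peak and 3.59% of those without. The sites are printed with 10 bases on each side, in the direction of the gene, with the element in capitals, because they recur in similar form near the starts of the cytosolic genes.

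TARS1: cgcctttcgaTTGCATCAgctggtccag
CARS1: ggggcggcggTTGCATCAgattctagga
MARS1: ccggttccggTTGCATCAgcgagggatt
IARS1: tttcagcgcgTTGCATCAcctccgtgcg
GARS1: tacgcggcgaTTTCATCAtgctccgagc
AARS1: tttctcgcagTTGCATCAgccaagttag
NARS1: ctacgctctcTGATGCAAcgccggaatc
YARS2: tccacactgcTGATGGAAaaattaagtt

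The TARS1 site is at chr5:33440957-33440984 on the plus strand and begins at base 3 counted from the second annotated start, at 33440965, inside the peaks of both libraries. The CARS1 site (chr11:3057408-3057435, minus strand), the MARS1 site (chr12:57488054-57488081, plus strand) and the IARS1 site (chr9:92293693-92293720, minus strand) begin 2, 4 and 13 bases before a start. The GARS1 site (chr7:30594835-30594862, plus strand) begins 33 bases before a start, and the NARS1 site (chr18:57621805-57621832, minus strand) at base 15 counted from its start. The sites of AARS1 (chr16:70289676-70289703, minus strand) and YARS2 (chr12:32756077-32756104, minus strand) lie farther out, beginning 187 and 197 bases upstream. In TARS1, CARS1, MARS1, IARS1 and AARS1 the capitals are the same 8 letters, and NARS1 has their reverse complement. A match is a description of letters and shows no binding.

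The peaks can also be read by amino acid. Of 16 amino acids with a gene of each kind among the members, 9 had no peak at either gene in any library. Leucine and threonine had a peak at the cytosolic gene only, and cysteine, glutamate and tryptophan at the mitochondrial gene only. For 2 amino acids both genes had a peak. For histidine they share the peak described above. For phenylalanine the peaks were at FARSB, in both libraries, and at FARS2, in the knockdown only.

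The 25 members without a peak were 13 cytosolic genes (AARS1, CARS1, EPRS1, FARSA, GARS1, IARS1, MARS1, NARS1, RARS1, SARS1, VARS1, WARS1 and YARS1), 11 mitochondrial genes (AARS2, IARS2, LARS2, MARS2, NARS2, PARS2, RARS2, SARS2, TARS2, VARS2 and YARS2) and EEF1E1. None of them lay close to the limit of 3 kb. The nearest was RARS1, with a peak 60.0 kb away in each library, and the farthest YARS1, at 11900 kb from a control peak and 11100 kb from a knockdown peak. The median distance was 1370 kb for control peaks and 918 kb for knockdown peaks.

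By chromosome, 4 of the 5 members on chromosome 5 had a peak in at least 1 library (HARS1, HARS2, LARS1 and TARS1, the first 2 sharing theirs), where 24.3% of all protein-coding genes had one. On chromosome 1 it was 1 of 7 members, where 14.0% of genes had one, and on chromosome 6 1 of 6, where 10.9% had one. On chromosome 16 it was 2 of 3 members, where 4.22% of genes had one, and on chromosome 4 it was 2 of 2, where 20.9% had one. On chromosomes 11 and 12 it was 0 of 2 members each, where 12.1% and 10.9% of genes had one. Neither FARSA nor SARS2 on chromosome 19 had a peak, and 0.827% of the genes there had one. Members with a peak had a median of 8 protein-coding neighbours within 500 kb, and those without 11, against 6 for all genes with a peak and 12 for all genes.

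The members' peaks were close to their lists in strength and width. The 10 control peaks had a median fold of 3.85, against 3.59 for the whole list, with 7 above that median. The 10 knockdown peaks had a median of 3.56, against 3.46, with 5 above. A −log10 q of at least 5 was reached by 2 of the 10 control peaks (LARS1 and FARSB) and 2 of the 10 knockdown peaks (LARS1 and WARS2). In the whole lists 191 of 2010 control peaks and 239 of 2418 knockdown peaks reached it. Median widths were 369 bp (control) and 403 bp (knockdown), against 360.5 and 366.5 bp for the lists. Where a member had a peak in both libraries, the peaks overlapped in all 7 cases, of which HARS1 and HARS2 share the same peaks. The share of overlapping peaks over all 991 protein-coding genes with a peak in both libraries is not given here. The overlap is therefore not shown to be particular to the members.

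Other genes of tRNA use and of the amino acid response were read the same way. The shares of all protein-coding genes to set beside these lists are 7.64% (control) and 9.26% (knockdown). Of 12 genes that deliver or use charged tRNA, 2 had a control peak and 2 a knockdown peak (16.7% each): the mitochondrial elongation factor gene GFM1 in each library (3.74-fold in control, 3.77-fold in knockdown), the elongation factor gene EEF1B2 in the control only (4.04-fold) and the tRNA exporter gene XPOT in the knockdown only (3.73-fold). The GFM1 values are its strongest peak in each library, and these lie at different places: over an end of the gene in the control and 14377 bp inside it in the knockdown. The EEF1B2 peak also lay near an end of NDUFS1 and of small nucleolar RNA genes, and the XPOT peak near an end of TBK1.

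Of 31 tRNA processing and modification genes, 2 had a control peak and 5 a knockdown peak (6.45% and 16.1%), against 7.64% and 9.26% of all protein-coding genes. THG1L, which adds a guanosine to histidine tRNA, had a 4.56-fold control peak and a 3.91-fold knockdown peak. TRNT1, which adds the CCA end to tRNAs, had it in the control only (4.32-fold). The methyltransferase genes TRMT5 (3.68-fold), TRMT10A (3.43-fold) and TRMT10C (3.22-fold) had it in the knockdown only, with a −log10 q of 2.33, 1.60 and 1.65. The TRNT1 peak also lay near an end of LOC124909339, the TRMT5 peak near SLC38A6 and the TRMT10A peak near MTTP. Of 14 proofreading, amidation and selenocysteine genes, 2 had a control peak and 1 a knockdown peak (14.3% and 7.14%). DTD2, a proofreading deacylase, was called in each library (3.48-fold in control, 3.55-fold in knockdown) and ANKRD16, which acts with AARS1, in the control only (3.61-fold). The ANKRD16 peak also lay near an end of FBH1.

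Of 20 amino acid response genes, 3 had a control peak (15.0%) and 7 a knockdown peak (35.0%), against 7.64% and 9.26% of all protein-coding genes. The serine synthesis genes PSAT1 (3.55-fold and 3.50-fold) and PSPH (4.61-fold and 3.58-fold) and the cystine transporter gene SLC7A11 (3.14-fold and 3.43-fold) had it in both. In the knockdown only, it was at ASNS, the asparagine synthetase gene (4.41-fold), EIF2S1, which encodes the alpha subunit of an initiation factor (4.34-fold), the amino acid transporter subunit gene SLC3A2 (3.79-fold) and ATF3, a stress-induced transcription factor (2.84-fold). The ASNS peak lay 20449 bp and the ATF3 peak 11991 bp from the closest outer end of the gene. Distances in these lists are to the outermost ends. Starts inside a gene were not examined, so such a peak may still lie at a start. The EIF2S1 peak is shared with ATP6V1D, the SLC3A2 peak with SNHG1 and its small nucleolar RNA genes, and the PSPH peaks with CCT6A.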

How the data were processed

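ATAC-seq peaks of C42 cells were analysed in 2 libraries, 1 per group, grouped by the condition label. The authors deposited 1 broad peak list per library, not pooled. The deposited values per peak are a fold enrichment (a ratio to the local background of that library), and the significance as −log10 of the p-value and of the q-value. The deposited score equals 10 times the −log10 q, truncated, for all 2010 and 2418 peaks. Per the submitters' processing notes the build was GRCh38 and the tools were MACS2, ChIPseeker 1.22.1, Picard 1.101, SAMtools 1.9, Bowtie2 2.2.9 and CASAVA 1.8.2. Not given in the sources used here are their roles, the peak calling options, any transposase cut-site shift and the handling of duplicate reads, which can move peak edges and counts. Depth is unknown.

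The members and lists were chosen with earlier results of these data known. All 40 members matched by symbol in the RefSeq gene table (GRCh38.p14), and 33 in its promoter table; AARS2, LARS1, SEPSECS, TARS3, VARS1, VARS2 and YARS1 did not. Peaks were assigned to every gene inside or within 3 kb, and overlap meant at least 1 bp. Every member with a peak is named. From the other lists, the rule took up to 4 genes with a peak in both libraries and up to 4 with a peak in 1. Shares carry exact 95% Clopper-Pearson intervals, and no test was made. Motifs were searched on both strands of all windows of a gene. Alternatives tried were a stricter −log10 q limit of 5, a distance of 1 kb, gene ends without gene bodies, lists of equal length, an overlap of 50% and, added after seeing the data, leaving out peaks near another protein-coding gene. Assignment was tested on simulated data. Analyses ran in Python 3.11.15 with scipy 1.17.1, pandas 2.3.3, numpy 2.4.6 and, for figures, matplotlib 3.10.9. Coordinates are 1-based.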

Additional observations from a re-analysis of the deposited data

How the results depend on the processing

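The counts of members depended on peak strength. With both lists limited to a −log10 q of at least 5, 2 members had a control peak, 2 a knockdown peak, 1 a peak in both, and 1 had overlapping peaks. The cytosolic counts were then 2 and 1 and the mitochondrial counts 0 and 1 (control and knockdown), and 0.579% and 0.739% of all protein-coding genes had such a peak. Leaving out peaks within 3 kb of another protein-coding gene, a choice made after seeing the data, left 4 members in the control, 5 in the knockdown and 4 in both, against 5.26% and 6.29% of all protein-coding genes. The cytosolic counts were then 3 and 3, and the mitochondrial counts 1 and 1.

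A distance of 1 kb, gene ends without gene bodies and lists of equal length each kept all 7 counts within 1.5 times their values. The mitochondrial count of the knockdown was 2 without gene bodies and 2 with equal lengths. Requiring 50% overlap of each peak kept 5 of the 7 members with overlapping peaks. The members lost were HARS1 and HARS2, which share the same peaks. No paired analysis was possible because each group has 1 library, and the same holds for leaving out a replicate. Depth is unknown, and the number of genes and the single library per group also limit the shares.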
